A study of Mus musculus with 2 samples.

Results

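The proteasome genes were described in skin of newborn K5-/- mice, which lack keratin 5, the keratin of the basal epidermis, and in skin of newborn wildtype mice. The members are the genes whose only annotated symbol starts with Psma, Psmb, Psmc, Psmd, Psme, Psmf or Psmg, which gave 46 of the 8251 genes on the array. Frozen skin of 6 animals per group was extracted and the RNA was pooled, and each pool was read on 1 Affymetrix array after biotin labelling. The labels give K5-/- as the genotype and no strain, sex or allele, call the tissue both epidermis and skin, and describe no step that separates the epidermis. With 1 array per group there is no replicate, so no test could be run and every difference below is a difference between those 2 pools.

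The proteasome is the protease that degrades ubiquitin-tagged proteins in the cytosol and nucleus of all cells. Its core, called 20S, is a barrel of stacked rings: alpha subunits (Psma) form the outer rings and gate the entrance, and beta subunits (Psmb) form the inner rings that hold the catalytic sites. The regulatory particle, called 19S, has a base, whose ATPases (Psmc) unfold the substrate and thread it into the core, and a lid (most of the Psmd subunits) that removes the ubiquitin chain. Interferon can replace the catalytic subunits by Psmb8, Psmb9 and Psmb10 and adds a cap of Psme1 and Psme2, which gives the immunoproteasome, a source of peptides for MHC class I.

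Values are MAS5 signals, a linear array intensity scaled to the same mean on both arrays. A gene was treated as measured if either array read above 246.7 signal units, called the floor. A difference is given as the log2 ratio of the K5-/- signal over the wildtype signal. Of 8251 genes 5976 were measured, and their median log2 ratio was 0.04. Different probe sets of a gene disagreed with an SD of 0.30 on the log2 scale over 838 genes. A ratio within that size of 0 was not separable from this disagreement. The SD leaves out differences of labelling, array and pool, which all probe sets of an array share, so a ratio beyond it can still be error. Beyond it on the lower side lay 18.1% of all measured genes. Signals were not compared between genes, because each probe set has its own response. Krt5, the targeted gene, read 81.2 and 46.6, under the floor on both arrays, so it could not check the labels.

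Proteasome genes read lower in K5-/- skin, by small amounts in most genes. Of the 46 members 42 were measured, each over the floor in both pools, and 34 of the 42 had a lower signal in the K5-/- pool, against 46.1% of all measured genes. At least 20% lower were 19 members, 45.2% of those measured, against 16.6% of all measured genes, and at least 25% higher were 2 members, against 21.8%. By its brightest probe set, none of the 42 measured members differed by 2-fold, which 0.703% of all measured genes did downwards and 1.54% upwards. The median log2 ratio of the members was -0.23. Scaling moved the backdrop: with quantile normalization 18.9% of all measured genes and 17 members were at least 20% lower. Among all genes at least 20% lower or at least 25% higher, which is the same fold, the lower ones were 43.3% with the trimmed mean, 50.8% with quantile normalization and 49.1% with lowess correction.

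The difference between the members and all genes varied with the signal level. Among genes with a mean signal of at least 1000, 51.4% of 3124 were lower in K5-/- skin and 18.4% were at least 20% lower, while 29 of 36 such members were lower and 18 were at least 20% lower. Between 4000 and 8000 signal units the median log2 ratio was -0.09 over 441 genes and -0.45 over 7 members. From 2000 to 4000, the band with the most members, it was -0.03 over 987 genes and -0.17 over 18 members. Between 1000 and 2000 it was 0.02 over 1453 genes and -0.03 over 7 members, almost no difference. At 8000 and above it was -0.02 over 243 genes and -0.43 over 4 members. The 6 members under 1000 had a median of -0.14, against 0.09 for 2649 genes.

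**Figure D1:**
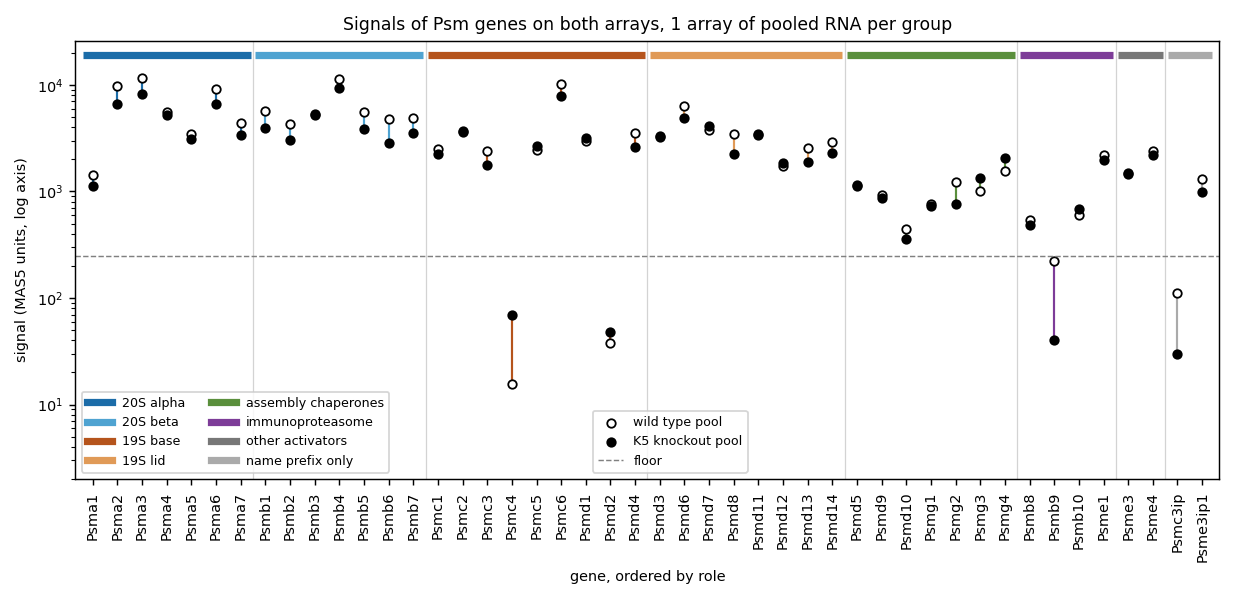
Signals of the 46 Psm genes (MAS5 units, log axis) in the K5-/- pool (filled) and the wildtype pool (open), ordered by role. Open circles lie above filled ones in nearly all 20S genes, and Psmc4, Psmd2, Psmb9 and Psmc3ip lie under the floor of 246.7 (dashed) on both arrays.

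The 20S core genes had the lowest ratios of the complex. All 14 were measured, 13 were lower in K5-/- skin and 10 were at least 20% lower, with a median log2 ratio of -0.46. In the 19S particle 15 of 17 genes were measured, 11 were lower and 7 were at least 20% lower, with a median of -0.18. The 19S counts depended on the scaling: 8 of 15 were lower under quantile normalization, where 50.3% of all measured genes were, with 5 at least 20% lower, and 8 of 15 under lowess correction (49.4% of all measured genes), with 4 at least 20% lower. The core had 13 of 14 lower and 9 at least 20% lower under either scaling. The difference between the core and the regulatory particle was not tested, since the data hold no replicates.

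All 3 genes of the constitutive catalytic subunits read lower. Psmb6, which carries the caspase-like site, read 2873 in the K5-/- pool and 4824 in the wildtype pool, 1.68-fold lower. Its log2 ratio of -0.75 was the lowest of the members, and 2.36% of all measured genes had a lower one. Psmb5, which carries the chymotrypsin-like site that the drug bortezomib blocks, read 3894 against 5558, a log2 ratio of -0.51. A second, dimmer Psmb5 probe set read 427 against 404, a log2 ratio of 0.08, so the direction differed between the probe sets of this gene. Psmb7, which carries the trypsin-like site, read 3558 against 4936, a log2 ratio of -0.47.

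Among the beta genes without a catalytic site, 3 of 4 read lower. Psmb1 read 3979 against 5717, a log2 ratio of -0.52, and its second measured probe set gave -0.32. Psmb2 read 3054 against 4282, a log2 ratio of -0.49. Both lie outside 1 SD between probe sets. Psmb4 read 9294 against 11420, a log2 ratio of -0.30, and the remaining gene, Psmb3, was level at 5294 against 5227, a log2 ratio of 0.02.

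All 7 alpha ring genes on the array had a lower signal in K5-/- skin, 5 of them by at least 20%. Psma2 read 6653 against 9812, the lowest alpha ratio at -0.56. Psma3 read 8150 against 11585, a log2 ratio of -0.51, and Psma6 read 6677 against 9097, a log2 ratio of -0.45. The next members, Psma7 and Psma1, had nearly the same ratio. Psma7 read 3410 against 4346, a log2 ratio of -0.35, and Psma1 read 1136 against 1437, a log2 ratio of -0.34. Psma5 (3094 against 3478, -0.17) and Psma4 (5244 against 5595, -0.09) lay within the spread between probe sets.

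**Figure D2:**
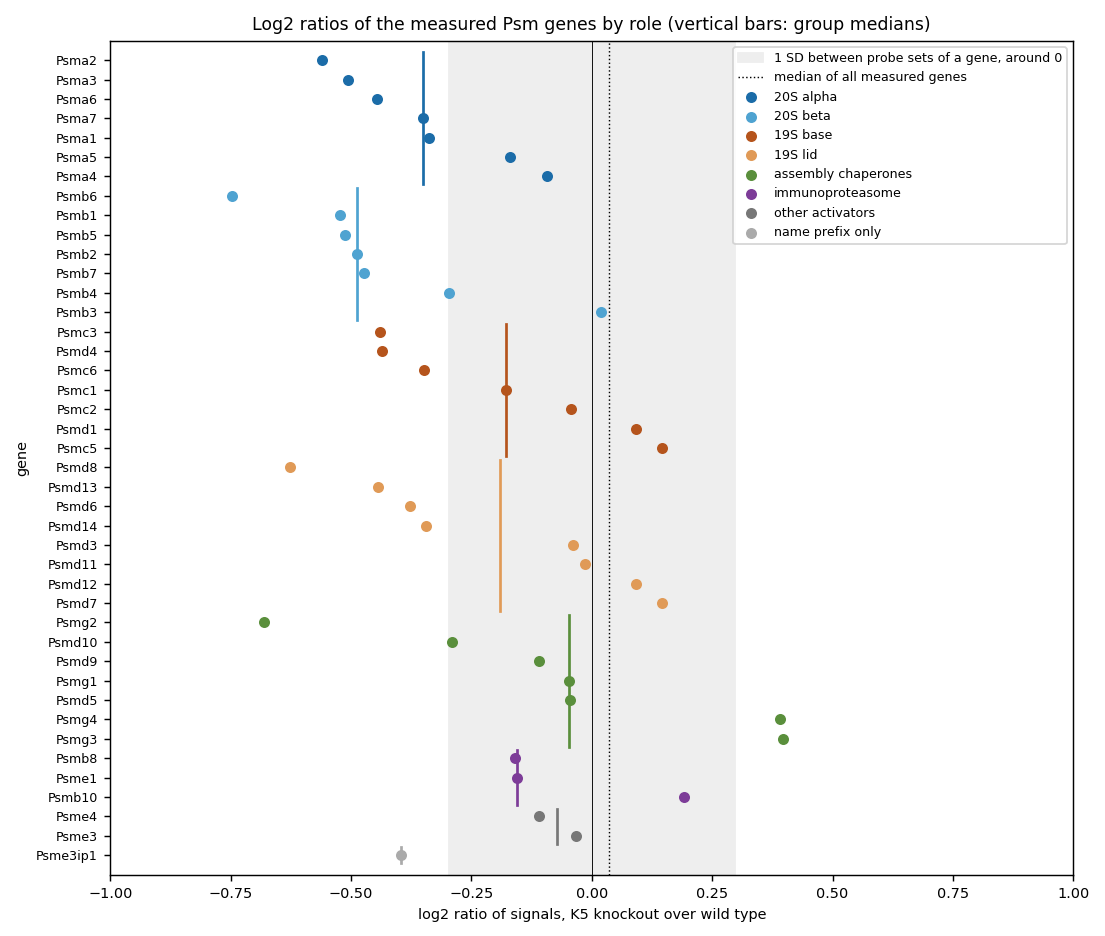
Log2 ratios (K5-/- over wildtype) of the 42 measured Psm genes, by role; vertical bars are group medians, the grey band is 1 SD between probe sets of a gene (0.30) around 0, and the dotted line is the median of all measured genes (0.04). The core genes sit to the left, with medians of -0.35 for alpha and -0.49 for beta, and Psmg3 and Psmg4 lie to the right of the band.

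The base of the 19S particle was divided, with 3 of 7 measured genes at least 20% lower and 2 slightly higher (median log2 ratio -0.18). The ATPase gene Psmc3 read 1760 against 2386, a log2 ratio of -0.44, and its other probe sets gave -0.25 and -0.59. Psmd4, which encodes a ubiquitin receptor, read 2620 against 3543, a log2 ratio of -0.44. The ATPase gene Psmc6 read 7949 against 10115, a log2 ratio of -0.35. These 3 lie just outside the spread between probe sets, and the remaining ATPases lie inside it. Psmc1 read 2238 against 2531 (-0.18), Psmc2 3590 against 3698 (-0.04) and Psmc5 2687 against 2428 (0.15). Psmd1, a large scaffold subunit, read 3192 against 2996 (0.09). Psmc4 (69.8 and 15.7) and the scaffold gene Psmd2 (47.8 and 38.0) were under the floor on both arrays and have no ratio.

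The lid was divided in the same manner: 4 of 8 genes were at least 20% lower and the other 4 were close to level (median log2 ratio -0.19). Psmd8, whose yeast counterpart is the last subunit to join the lid, read 2241 against 3463, 1.54-fold lower, and 4.35% of all measured genes had a lower ratio. The structural gene Psmd13 read 1877 against 2554, a log2 ratio of -0.44, and Psmd6 read 4866 against 6319, a log2 ratio of -0.38. Psmd14, the metalloprotease that cuts ubiquitin chains off the substrate, read 2288 against 2904, a log2 ratio of -0.34. Psmd7, its inactive partner in the lid, read 4159 against 3757, a log2 ratio of 0.15. Psmd3 (3255 against 3346, -0.04), Psmd11 (3419 against 3455, -0.01) and Psmd12 (1834 against 1720, 0.09) were level. The other probe sets of Psmd11 gave 0.12 and 0.18, and the mean over its probe sets was 0.10. Under quantile normalization and under lowess correction the small ratios of Psmc2, Psmd3 and Psmd11 were above 0. Under lowess correction 4 of 8 lid genes were lower and 2 were at least 20% lower, as Psmd6 was then at -0.29 and Psmd14 at -0.31.

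The dedicated assembly chaperones included both the second lowest and the highest ratios of the members. Psmg1 and Psmg2 act as a pair, and so do Psmg3 and Psmg4, and both pairs build the alpha ring. Psmg2 read 764 against 1224, 1.60-fold lower, while its partner Psmg1 was level at 736 against 761 (log2 ratio -0.05). Psmg4 read 2051 against 1564, a log2 ratio of 0.39. Psmg3 read 1341 against 1019, a log2 ratio of 0.40, and its second probe set read 835 against 372, a log2 ratio of 1.16. So both genes of the second pair were higher in K5-/- skin while Psmg2 was lower, and the size for Psmg3 depends on the probe set. Among the chaperones of the base, Psmd10 read 361 against 441 (-0.29), and was at -0.42 under quantile normalization and -0.41 under lowess correction, outside the spread. The others stayed within it, Psmd9 at 864 against 932 (-0.11) and Psmd5 1118 against 1155 (-0.05).

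The 3 measured immunoproteasome genes were near level. Psmb10, the inducible counterpart of Psmb7, read 692 against 605, a log2 ratio of 0.19, and Psmb8, the counterpart of Psmb5, read 486 against 543, a log2 ratio of -0.16. Psme1, a subunit of the cap, read 1980 against 2207, a log2 ratio of -0.16. All 3 lie within the spread between probe sets. Psmb9, the counterpart of Psmb6, read 40.5 against 221, under the floor on both arrays, and has no ratio in the main setting. The log2 ratio of Psmb10 was 0.66 above that of Psmb7, and that of Psmb8 was 0.35 above that of Psmb5. The pair of Psmb9 and Psmb6 has no such difference, because Psmb9 has no ratio in the main setting. The difference to Psmb5 rests on the brighter of its probe sets.

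The other activators were level: Psme3, which caps the nuclear proteasome, read 1448 against 1481 (log2 ratio -0.03), and Psme4, an activator known from DNA repair and sperm maturation, read 2212 against 2388 (-0.11). The name rule also took in genes that are not subunits. Psme3ip1, which encodes a partner of Psme3, read 985 against 1297, a log2 ratio of -0.40, and Psmc3ip, a factor of meiotic recombination, was under the floor at 29.9 and 111. Without this pair, 18 of 41 measured members were at least 20% lower and the median was -0.18. Psma8, Psmb11, Psme2, Psme2b and Psmf1 were not analysed here.

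The promoters of 4 members are shown because they include the catalytic subunits Psmb5 and Psmb6, an alpha ring gene and a chaperone with a higher signal. They were chosen after the values were seen. Each is the RefSeq window (GRCm38.p6) from 250 bases before to 50 bases after the annotated start, on the gene's strand. Capitals mark matches to TGACNNNGC, the core of the antioxidant response element bound by NFE2L1 and NFE2L2, to CCAAT, the site of NF-Y, and to a core of the interferon-stimulated response element, GAAA repeated after a gap of 2 bases of any kind. Both strands were searched, and the matches do not overlap. Psmb5 lies at chr14:54617946-54618245 (minus strand), Psmb6 at chr11:70525107-70525406 (plus), Psma2 at chr13:14612992-14613291 (plus) and Psmg4 at chr13:34162714-34163013 (plus).
Psmb5: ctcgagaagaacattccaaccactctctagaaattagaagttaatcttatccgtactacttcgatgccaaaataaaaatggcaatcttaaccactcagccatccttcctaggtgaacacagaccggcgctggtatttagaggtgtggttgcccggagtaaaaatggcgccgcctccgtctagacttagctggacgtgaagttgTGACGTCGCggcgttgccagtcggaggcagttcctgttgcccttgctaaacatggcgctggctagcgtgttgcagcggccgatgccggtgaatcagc
Psmb6: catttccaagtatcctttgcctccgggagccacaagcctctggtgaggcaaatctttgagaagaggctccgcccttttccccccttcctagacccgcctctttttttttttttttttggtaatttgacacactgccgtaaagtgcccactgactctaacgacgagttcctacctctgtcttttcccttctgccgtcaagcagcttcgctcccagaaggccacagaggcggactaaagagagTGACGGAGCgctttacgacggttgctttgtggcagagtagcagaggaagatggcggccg
Psma2: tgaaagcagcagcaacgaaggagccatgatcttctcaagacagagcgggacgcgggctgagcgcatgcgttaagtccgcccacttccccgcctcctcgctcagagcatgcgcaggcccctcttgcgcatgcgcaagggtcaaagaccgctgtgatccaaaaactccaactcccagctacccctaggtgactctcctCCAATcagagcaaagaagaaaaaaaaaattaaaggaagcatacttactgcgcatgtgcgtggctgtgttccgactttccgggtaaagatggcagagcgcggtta
Psmg4: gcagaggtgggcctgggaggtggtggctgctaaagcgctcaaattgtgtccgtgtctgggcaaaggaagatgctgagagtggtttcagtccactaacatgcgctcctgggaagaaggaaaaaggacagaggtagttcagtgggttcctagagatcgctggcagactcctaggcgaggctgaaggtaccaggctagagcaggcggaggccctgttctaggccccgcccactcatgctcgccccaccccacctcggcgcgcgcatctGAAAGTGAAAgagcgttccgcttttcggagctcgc

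Psmb5 and Psmb6 each held a match to the antioxidant response element core, at -47 and -9 from the start, Psma2 held a CCAAT box at -54, and Psmg4 held the interferon element core at 15. Promoter windows were found for 39 of the 46 members, 42 windows in all, and none for Psmb1, Psmb2, Psmb7, Psmc3, Psmd3, Psmd7 and Psmg2. The antioxidant core was in 6 of the 42 (14.3%), those of Psmb5, Psmb6, Psmc6, Psmd9, Psmd12 and Psme4, and in 12.4% of all 32851 windows. Of these 6 genes, Psmb5, Psmb6 and Psmc6 read at least 20% lower and Psmd9, Psmd12 and Psme4 were level. CCAAT was in 35.7% of the members' windows and 37.4% of all windows. The interferon core was in 5 of 42 (11.9%) and 3.44%. Its holders were Psmg4 (log2 ratio 0.39), Psmb3 (0.02), Psmd9 (-0.11), Psme1 (-0.16) and Psmd4 (-0.44). The gamma-activated site TTCNNNGAA was in 7.14% and 8.3%, with Psmb8 among the genes that hold it. The GC box GGGCGG was in 54.8% and 35.7%. A match describes letters in a window and is no evidence of binding.

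Genes that act with the proteasome did not read lower as a group. A list of associated factors held 15 genes, all measured. The K5-/- signal was the lower in 6 and the higher in 9, 2 were at least 20% lower, and the median log2 ratio was 0.03. Among the 6 was Sem1, a lid subunit that the name rule and so the lid counts leave out. Sem1 read 9944 against 11892, a log2 ratio of -0.26. Nfe2l2, a transcription factor of the oxidative stress response, read 1275 against 626, 2.04-fold higher, and it was under 2-fold (log2 ratio 0.92 to 0.99) under 4 of the 8 other settings. Nfe2l1, the factor that restores proteasome transcription when the protease is inhibited, read 3181 against 2303, a log2 ratio of 0.47. Averaged over its probe sets above the floor, Nfe2l1 was at 0.32. Pomp, a chaperone that completes the assembly of the core, read 6173 against 4962, a log2 ratio of 0.32. Nfe2l1 and Pomp were picked after their values were seen. Ecpas, an adaptor of the 19S particle, read 1611 against 990 (log2 ratio 0.70), while Uchl5, a deubiquitinase of the 19S particle, read 425 against 758 (log2 ratio -0.83) and the shuttle factor Ubqln2 read 724 against 937 (log2 ratio -0.37). Nfe2l1 and Nfe2l2 read higher and 13 of 14 core genes read lower, and a link between them was not tested.

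Other targets of NFE2L2 were divided: 5 read lower and 3 read higher among 8 measured genes (median -0.12). Srxn1, which repairs oxidised peroxiredoxin, was at a log2 ratio of 0.47 (428 against 309), and Hmox1, heme oxygenase, at 0.16 (5309 against 4765). Gsr, glutathione reductase, was at -0.45 (820 against 1119), and Gclc, a subunit of the enzyme that starts glutathione synthesis, at -0.43 (604 against 812). Ubiquitin E2 enzymes and their variants carry ubiquitin to its ligases, and 12 of 19 measured genes read lower and 7 read higher (median -0.04). Among those with both signals over the floor, Ube2h (1918 against 1179, 0.70) and Ube2k (1316 against 1062, 0.31) were the highest. Ube2e1 (1402 against 2217, -0.66) and Ube2v2 (484 against 751, -0.63) were the lowest of these. Ube2t, under the floor in the K5-/- pool only (236 against 430), was lower still at -0.80, a bound. With a floor raised to the 60th percentile Ube2v2 was at -0.19. Ube2k had a log2 ratio of -0.22 from plain probe sets only. No polyubiquitin gene of the list was named by a probe set with a single symbol.

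MHC class I genes, the partners of the immunoproteasome, had a median log2 ratio of -0.35, with 6 of 8 measured genes lower and 4 at least 20% lower. With plain probe sets only, 3 of 6 were lower, with a median of -0.15, and with a floor raised to the 60th percentile 2 of 7 were at least 20% lower. B2m, the light chain of MHC class I, read 5032 against 7349 (log2 ratio -0.55), and the peptide transporter gene Tap1 read 581 against 816 (-0.49). The chaperone genes Canx (900 against 763, 0.24) and Tapbp (1266 against 1188, 0.09) were the highest. Interferon response factors read higher in 5 and lower in 2 of 7 measured genes (median 0.08), and their median was below 0 under lowess correction (-0.01) and under a floor raised to the 60th percentile (-0.13). Irf1, a transcription factor that drives immunoproteasome genes, read 722 against 388 (log2 ratio 0.90), and Irf9 read 659 against 530 (0.31). The interferon gamma receptor genes were lower, Ifngr2 at 376 against 723 (log2 ratio -0.94) and Ifngr1 at 606 against 1028 (-0.76).

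**Figure D3:**
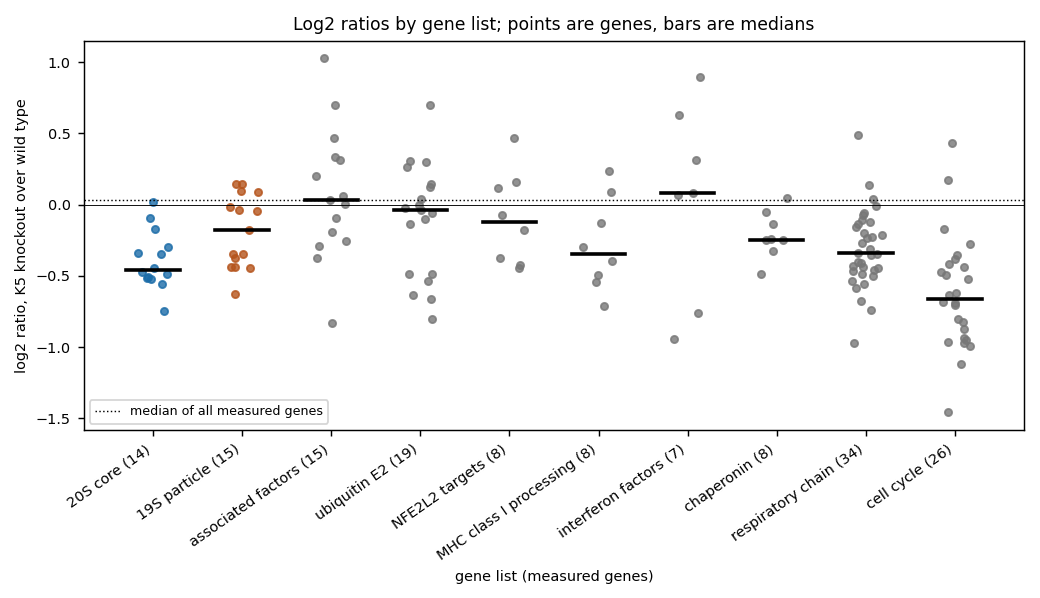
Log2 ratios (K5-/- over wildtype) of the measured genes of each list, 1 point per gene, with the number of genes in brackets, list medians as bars and the median of all measured genes (0.04) dotted. The 20S core (median -0.46) lies between the respiratory chain (-0.34) and the cell cycle list (-0.66), and the associated factors are centred at 0.03.

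In other housekeeping complexes most genes read lower on the same arrays, where 46.1% of all measured genes did. The cytosolic chaperonin had 7 of 8 genes lower, by small amounts. Its median log2 ratio of -0.25 lay within the spread between probe sets. At least 20% lower were 2 of its 8 genes (25%), against 16.6% of all measured genes. Under quantile normalization and lowess correction 1 of 8 was (12.5%), against 18.9% and 18.2%. Of the respiratory chain, 31 of 34 measured genes were lower, 18 of them by at least 20%, with a median of -0.34. Cell cycle genes were lower by more, 24 of 26 measured, with a median of -0.66. The differences between these lists and the proteasome genes were not tested. A lower signal in whole skin can come from fewer cells of a type or from less RNA per cell, which cannot be told apart here.

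Markers of several other cell types were higher in the K5-/- pool, where 53.9% of all measured genes were higher. Hair follicle markers had 13 of 14 measured genes higher (summed signal 30727 against 22659), skeletal muscle markers 17 of 17 (130650 against 108350), macrophage markers 13 of 13 (21945 against 16101) and dermal fibroblast markers 10 of 13 (270790 against 236940). Adipocyte markers had 4 of 6 higher (15973 against 12938). Of the lymphocyte markers 4 of 10 were measured, 2 of them higher (4844 against 6746), and Cd3e, Cd3g, Cd3d, Cd8a, Cd79b and Ptprc were at the floor on both arrays. Keratinocyte markers had 5 of 12 higher and 7 lower (median log2 ratio -0.09), with Krt5, Krt14 and Krt15 at the floor. Their summed signal was nevertheless higher (245470 against 220430), as each sum here follows the brightest genes of its list. The 7 lower were Itgb4 (-0.56), Trp63 (-0.54), Krt2 (-0.51), Itga6 (-0.38), Col17a1 (-0.29), Krt10 (-0.18) and Perp (-0.004). The 5 higher were Ivl (1.27), Flg (0.47), Lor (0.29), Krt1 (0.28) and Dsp (0.11). The 3 prime to 5 prime signal ratio, a sign of RNA integrity, was 1.04 and 1.06 for Actb and 0.841 and 0.831 for Gapdh. The part of tissue makeup in the proteasome values was not tested.

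**Figure D4:**
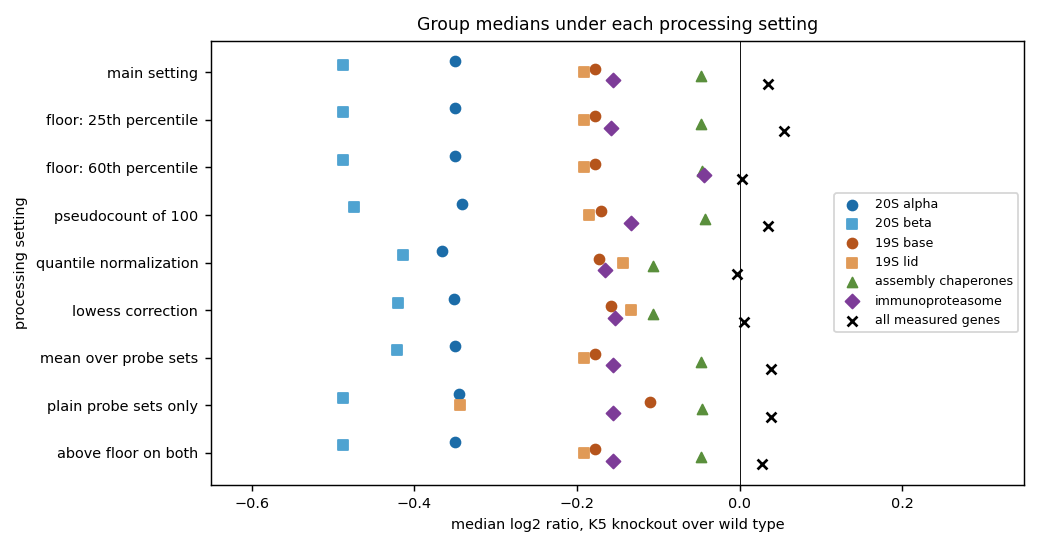
Median log2 ratio (K5-/- over wildtype) of the proteasome groups and of all measured genes under the main setting and 8 other processing settings. The beta median stays between -0.49 and -0.41 and the alpha median between -0.37 and -0.34, while the lid median runs from -0.34 to -0.13.

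The order of the groups depended little on the processing for the core and more for the regulatory particle. In each of the 9 settings, as plotted by setting, the beta genes had the lowest median and the alpha genes the next. Changes of the floor could not move the core medians, since every core gene lay well over it on both arrays. With plain probe sets only, which leaves out those with an _f_, _i_, _r_ or _s_ tag because their probes can match several transcripts or broke a design rule, the lid median was -0.34 over 7 genes and the core median was -0.35 over 11 genes, with 9 lower. Psma3, Psmb4, Psmb7, Psmc3 and Psmd12 are read by probe sets tagged _f_, Psmb5 by an _s_ probe set, and Psmd9 and Psmg3 by _r_ probe sets. RefSeq also lists 6 Psm pseudogenes, so the single values of these genes are uncertain. With plain probe sets only, 3 of 5 beta genes were lower, against 45.9% of all measured genes. Of the catalytic genes Psmb6 stayed lower, Psmb5 was at 0.08 and Psmb7 was left out.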

How the data were processed

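The deposited values are intensities on a linear scale, 1 per probe set; per the submitters' processing notes they were made with MAS5, whose version and scaling target are not given in the sources used here. Here each array was scaled to a common 2% trimmed mean over 12422 non-control probe sets, signals under the 40th percentile of all values were raised to it, and log2 ratios were taken (Python 3.11.15, numpy 2.4.6, pandas 2.3.3). Genes were named from probe sets with 1 symbol in the platform annotation (10833), and the brightest probe set stood for a gene. Every member is given; of each other pathway list the 2 highest and 2 lowest genes above the floor on both arrays are named. The members and lists were chosen with earlier results of these data known. The calculation was tested on simulated data. With 1 array per group no test was run, and the number of arrays limits the precision. Alternatives were other floors, a pseudocount of 100, quantile and lowess scaling, and other choices of probe sets.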

Additional observations from a re-analysis of the deposited data

How the results depend on the processing

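No paired analysis was possible because each group is 1 array of pooled RNA, and for the same reason no replicate could be left out. The count of lower members lay between 28 (of 36 measured, plain probe sets only) and 36 (of 44, floor at the 25th percentile). The lowest share was 73.8% (31 of 42) under quantile normalization and lowess correction, where 50.3% and 49.4% of all measured genes were lower. The count at least 20% lower, whose alternatives were added after the data were seen, lay between 15 of 36 and 21 of 44. Its lowest share was 38.1% (16 of 42) under lowess correction, against 18.2% of all measured genes. The alpha, beta, base, lid and immunoproteasome medians were below 0 under all 8 other settings. The median of all measured members was -0.29 with the floor at the 25th percentile, which adds Psmb9 and Psmc3ip (44 measured), and -0.16 with plain probe sets only (36 measured). The lid median was -0.34 with plain probe sets only. Many single-member values were fixed in advance. Changing the floor, or keeping only genes over it on both arrays, returns the main ratio of a member well over the floor. Averaging probe sets or keeping plain ones does the same for a member with 1 plain probe set. The counts that follow are thus no measure of robustness. Of 328 single-member values under other settings 325 moved by less than the spread between probe sets (0.30). The others were Psmg3, at 0.78 when its probe sets were averaged and at 1.16 from plain probe sets only, and Psmb5, at 0.08 from plain probe sets only. Of 173 values of the other named genes 6 moved by more, among them Uchl5 (-0.20) and Irf1 (0.13) with the floor at the 60th percentile, where each is a bound.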
